A study of Mus musculus with 10 samples.

Results

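The regions described here were the 648 peaks of H3K27me3 in Mtf2-null erythroblasts that lay on an autosome, away from gene starts, and at a site of Mtf2 binding in WT pro-erythroblasts. They were chosen by measured values: from the 5791 peaks of the Mtf2-null CD71+Ter119+ H3K27me3 list, 5129 were autosomal, 4807 of these did not overlap the 5 kb on either side of any protein-coding transcription start site (TSS), and 648 of the distal peaks shared at least 1 base with a Mtf2 peak of WT CD71+Ter119-/lo cells. They made up 11.2% of the list and 13.5% of its distal autosomal peaks. This share was lower under stricter settings, at 4.85% (20 regions) with a score (10 times the negative log10 of the peak caller's p) of at least 100 in every list and at 6.24% (303 regions) with 500 bp at each summit in place of whole peaks. The remaining 4159 distal peaks, without a Mtf2 peak, served as the comparison.

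Cells were sorted from fetal livers of e14.5 embryos, with 500000 cells for each ChIP or IgG control. Mtf2-null embryos were Pcl2 -/- (Pcl2 being another name of Mtf2), derived from gene-targeted C57Bl/6 embryonic stem cells and lacking the gene in every tissue, stroma of the liver included, and WT embryos carried Pcl2 on the same strain background. Erythroblasts were the CD71+Ter119+ fraction (Ter119high in the labels) and pro-erythroblasts the CD71+Ter119-/lo fraction, and 1 peak list per condition was analysed here, although the methods speak of 2 replicates. Without a spread between replicates, no test between conditions was made, and the 95% Wilson intervals below cover counting error over peaks of 1 library only. Mtf2 was measured in WT cells alone, so the Mtf2 peaks that define these regions come from another genotype and an earlier stage than the H3K27me3 peaks. The peak lists hold no expression and cannot check the sorted cell type. In all 4 H3K27me3 lists, 0 peaks lay at the Mtf2 gene (chr5:108494693-108538023, with 5 kb on either side), which checks nothing about the deletion.

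H3K27me3 is written by Polycomb repressive complex PRC2 and marks silent chromatin. Mtf2 is one of the Polycomb-like accessory proteins, which bind DNA with unmethylated CpG and bring PRC2 to it, and in most cell types this happens at CpG islands near the starts of developmental genes. The peaks described here lie elsewhere: away from gene starts by the rule, and in sequence that does not reach the density of a CpG island.

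The sequence under the summits is shown first, because nearly all members lay in sequence that recurs in the genome. This trait was not particular to them. By the measure given below it was also found at 84.1% of the other distal peaks. It was found at 91.6% of distal autosomal peaks of the Mtf2 list that the rule uses. Each line below gives 201 bases centred on a summit, on the plus strand of NCBIM37 (mm9), with CG dinucleotides in capitals. The 6 windows belong to the member with the highest score, the member with the highest fold enrichment, and 4 further members. Each of these 4 shared a long exact run with another printed window. The window with the highest score shared no run of at least 24 bases with any of the others.
Highest score, upstream of Fhl2, chr1:43287594-43287794: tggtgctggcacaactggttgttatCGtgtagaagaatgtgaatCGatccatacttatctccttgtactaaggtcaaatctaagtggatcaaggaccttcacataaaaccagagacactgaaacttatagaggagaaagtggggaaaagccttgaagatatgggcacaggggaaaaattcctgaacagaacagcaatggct
Highest fold, in an intron of Tpte, chr8:23404230-23404430: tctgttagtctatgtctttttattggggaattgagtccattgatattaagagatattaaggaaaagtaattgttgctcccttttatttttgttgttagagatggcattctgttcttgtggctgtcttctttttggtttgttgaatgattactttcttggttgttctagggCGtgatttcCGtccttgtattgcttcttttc
Upstream of Sptlc3, chr2:139215239-139215439: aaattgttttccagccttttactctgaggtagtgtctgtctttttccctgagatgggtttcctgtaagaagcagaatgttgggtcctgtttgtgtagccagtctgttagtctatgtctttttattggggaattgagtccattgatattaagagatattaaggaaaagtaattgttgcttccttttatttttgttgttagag
Upstream of Cdh6, chr15:14661852-14662052: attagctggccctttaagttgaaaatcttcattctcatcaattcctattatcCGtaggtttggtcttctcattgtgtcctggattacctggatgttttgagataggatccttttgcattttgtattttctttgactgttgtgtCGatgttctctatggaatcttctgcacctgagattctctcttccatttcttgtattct
Upstream of Slc16a14, chr1:85010482-85010682: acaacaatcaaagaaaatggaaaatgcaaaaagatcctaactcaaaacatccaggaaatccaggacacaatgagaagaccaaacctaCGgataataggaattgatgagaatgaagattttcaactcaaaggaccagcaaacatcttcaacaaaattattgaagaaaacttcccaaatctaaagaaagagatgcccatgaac
Upstream of Pcdh17, chr14:82810087-82810287: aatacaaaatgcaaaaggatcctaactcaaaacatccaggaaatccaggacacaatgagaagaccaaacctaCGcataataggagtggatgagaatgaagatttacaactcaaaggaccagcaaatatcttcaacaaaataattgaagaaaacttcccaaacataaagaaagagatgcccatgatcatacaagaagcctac

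These windows held between 0 and 2 CG dinucleotides each. The Tpte and Sptlc3 windows, on chr8 and chr2, shared an exact run of 77 bases on the same strand. The Slc16a14 window shared 69 bases with the Cdh6 window, read on the opposite strand, and 57 bases with the Pcdh17 window on the same strand. Over the 16 summit windows extracted for named members, 6 of 120 pairs shared an exact run of at least 24 bases on either strand. These 6 pairs joined loci on chromosomes 1, 2, 5, 8, 14 and 15, while the other pairs shared no run of that length.

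High-copy sequence was measured for all members as the share of 16-base words, in the 300 bp around the summit, that occur at least 100 times in the reference on both strands, and a summit was called repeat-rich when at least 50% of its words did. Of the 648 members, 634 were repeat-rich, or 97.8% (96.4 to 98.7%), against 84.1% (83.0 to 85.2%) of the distal peaks without Mtf2 and 11.8% of all 300 bp autosomal windows. The median member had 91.6% of its words at high copy, and the median distal peak without Mtf2 had 78.9%. Peaks of the same list near a TSS were repeat-rich in 71.7% of 322 cases. No repeat annotation was used, so the families of these repeats are not named.

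**Figure D1:**
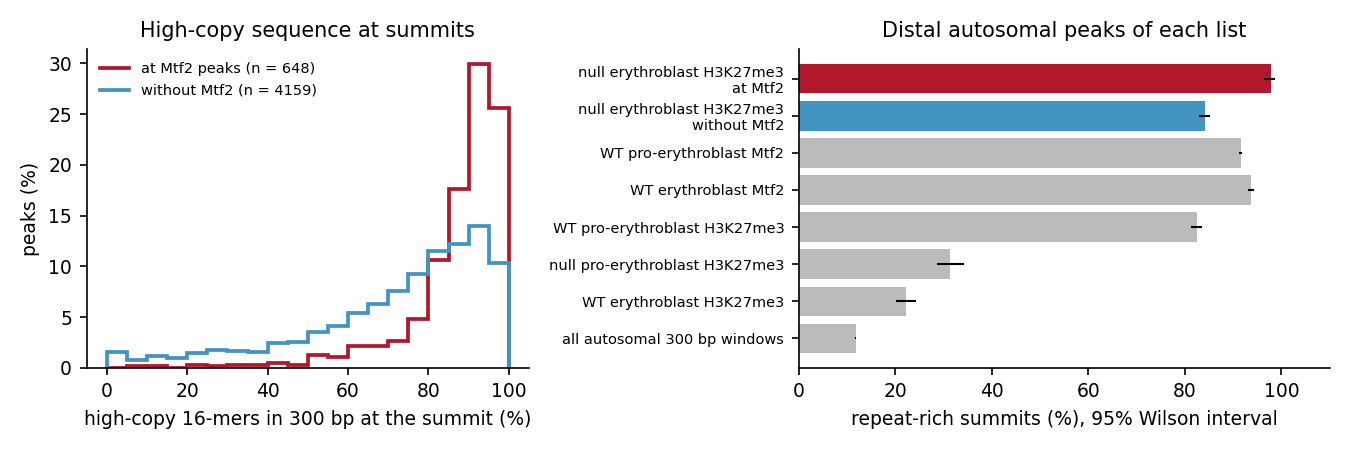
The left panel plots the share of 16-base words with at least 100 copies in 300 bp at the summit (x axis, %) against the share of peaks (y axis, %), for members (red) and distal peaks without Mtf2 (blue, 2 of them left out for unknown bases). The right panel gives the share of repeat-rich summits among the distal autosomal peaks of each list with 95% Wilson intervals: members stand at 97.8%, both Mtf2 lists above 90%, and WT erythroblast H3K27me3 at 22.1%.

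The other lists differed widely in this measure. Distal autosomal Mtf2 peaks were repeat-rich in 91.6% of cases in WT pro-erythroblasts and in 93.7% in WT erythroblasts, and distal H3K27me3 peaks of WT pro-erythroblasts in 82.4%. In contrast, only 22.1% (20.2 to 24.2%) of distal H3K27me3 peaks of WT erythroblasts and 31.4% (28.7 to 34.2%) of those of Mtf2-null pro-erythroblasts were repeat-rich. Distal H3K27me3 of Mtf2-null erythroblasts, members and comparison peaks alike, thus lay in high-copy sequence more often than distal H3K27me3 of WT erythroblasts in these lists, without a test. In pro-erythroblasts the order was the reverse, with 82.4% in WT and 31.4% in Mtf2-null cells. The libraries also differed in depth and in the share of unique tags among all tags, as the peak caller's header counts them. That count takes tags at the same position once, so the share reflects duplicates and not reads with several matches. Erythroblast H3K27me3 had 67169672 unique tags (78.4%) in Mtf2-null and 30054186 (83.4%) in WT cells. Their IgG controls had 20646036 (91.8%) and 12345800 (58.1%), or 3.25 and 2.43 unique ChIP tags per unique IgG tag. Pro-erythroblast H3K27me3 had 37026535 unique tags (85.4%) in Mtf2-null and 18945784 (80.7%) in WT cells. The IgG controls of these had 39667267 (42.3%) and 16898992 (75.5%), or 0.933 and 1.12 unique ChIP tags per unique IgG tag. The WT Mtf2 libraries had 29009650 (34.6%) in pro-erythroblasts and 15669899 (39.7%) in erythroblasts. How reads with several matches were placed is not given in the sources used here. The part of read placement, duplicates or control depth in the repeat-rich shares was not tested.

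Short stretches of sequence recurred between members, although no single one was in most of them. Reading 24-base words in the same 300 bp windows on both strands, 641 members (98.9%) shared at least 1 word with another member, and 632 (97.5%) could be linked into a single set through chains of different shared words. A member shared words with a median of 49 others, with quartiles at 39 and 59. Of the distal peaks without Mtf2, 3711 (89.2%) shared a word with at least 1 member. The 4 words carried by the most members, leaving out words that overlap a more frequent one by 12 bases, are printed. Apart from the words left out, no other word was carried by more members, and none of the 4 holds a CG.
Word A: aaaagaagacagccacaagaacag
Word B: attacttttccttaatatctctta
Word C: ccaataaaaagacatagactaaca
Word D: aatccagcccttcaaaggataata

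Word A lay in 58 members (8.95%), in 113 distal peaks without Mtf2 (2.72%) and in 0.130% of 300 bp autosomal windows. Word B lay in 54 members (8.33%) and in 3.01% of the other distal peaks. Word C lay in 50 members (7.72%) and 2.77% of the others, and word D in 39 members (6.02%) and 2.55%. The autosomes hold between 11272 and 13035 copies of each. The words were picked for being frequent in members, so their lower share in the other peaks is a description and no support for a difference. The window printed for Tpte holds words A, B and C within its 201 bases, and the window printed for Sptlc3 holds words B and C, in each case on one strand or the other.

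Only 14 members were not repeat-rich. They included both members inside the long gene model Gm20388 on chromosome 8. The higher-scoring of these, chr8:126124427-126125602, lay 52.9 kb upstream of Rhou, which encodes a small GTPase, and held 47.7% high-copy words, 58.9% GC and 33 CG dinucleotides in 1 kb, against a median of 7 over all members. The other, chr8:126098995-126099974, held 40.7% high-copy words and 59.0% GC. Both members inside Vmn1r112, a vomeronasal receptor gene, were also among the 14, at 41.4% and 10.2% high-copy words.

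Base composition was low in GC and narrow. In the 1 kb around the summit, members had a median of 38.3% GC with quartiles at 37.5 and 41.6%, distal peaks without Mtf2 had 38.7%, and all 1 kb autosomal windows had 41.7%. The median observed over expected CpG ratio was 0.200 in members (quartiles 0.145 and 0.249), 0.151 in the other distal peaks and 0.161 in autosomal windows. Members were thus lower in GC than the genome but slightly richer in CpG for that GC. Windows that reached the CpG island limits of 50% GC and a ratio of 0.6 numbered 0 of 648 members, so that a share under 0.463% cannot be told from none, and 0 of 4159 other distal peaks, where the limit is 0.0721%. Distal H3K27me3 peaks of WT erythroblasts reached these limits in 14.6% of cases. A window with no CG at all was found for 2 members (0.309%) and for 64 other distal peaks (1.54%).

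**Figure D2:**
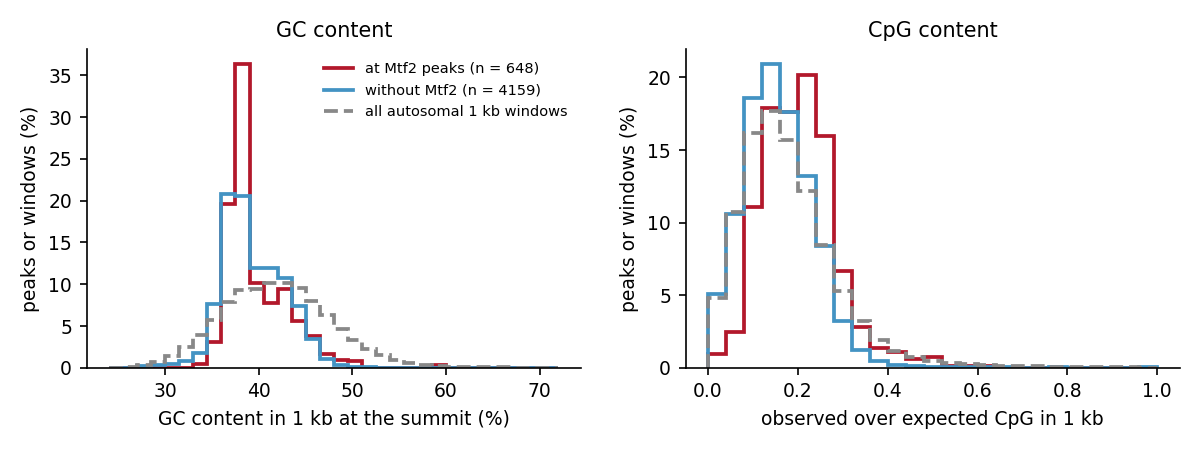
GC content (left, %) and observed over expected CpG (right, a ratio without unit) in 1 kb at the summit, plotted against the share of peaks or windows (y axes, %) for members (red), distal peaks without Mtf2 (blue) and all autosomal 1 kb windows (dashed grey). Members form a narrow GC peak with a median of 38.3% and lie to the right of the other distal peaks in CpG ratio, with medians of 0.200 and 0.151.

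Short motifs were searched in the 300 bp at the summit on both strands. The motif bound by GATA factors (AGATAA or TGATAA), which guide erythroid transcription, lay in 266 members or 41.0% (37.3 to 44.9%), in 41.8% of the other distal peaks and in 33.5% of autosomal windows. The KLF motif (CCACACCC), read by the erythroid factor Klf1 among others, lay in 1 member (0.154%), in 0.625% of the other distal peaks and in 1.83% of autosomal windows. The trinucleotide GCG lay in 46.9% of members (43.1 to 50.8%), 36.4% of the other distal peaks (35.0 to 37.9%) and 48.3% of windows. A run of 6 CA repeats lay in 0.926% of members and 3.77% of the others, and a run of 10 A or T in 1.23% and 3.65%. Members that share sequence also share motifs, so the counts are not independent loci. Members were also lower in GC than autosomal windows, and the part of base composition in these shares was not tested.

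At most members the Mtf2 peak covered the larger part of the H3K27me3 peak. The median member had 90.7% of its bases covered, with quartiles at 54.0 and 100%; 220 members (34.0%) were covered over the whole length and 498 (76.9%) over at least 50%, while 25 (3.86%) were covered under 10%. The H3K27me3 summit lay inside a Mtf2 peak in 506 members (78.1%). The nearest partner summit was at a median of 566 bp, and 256 members (39.5%) had their summits within 200 bp of each other. A single Mtf2 peak was met by 618 members, 2 by 29 members and 3 by 1 member.

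**Figure D3:**
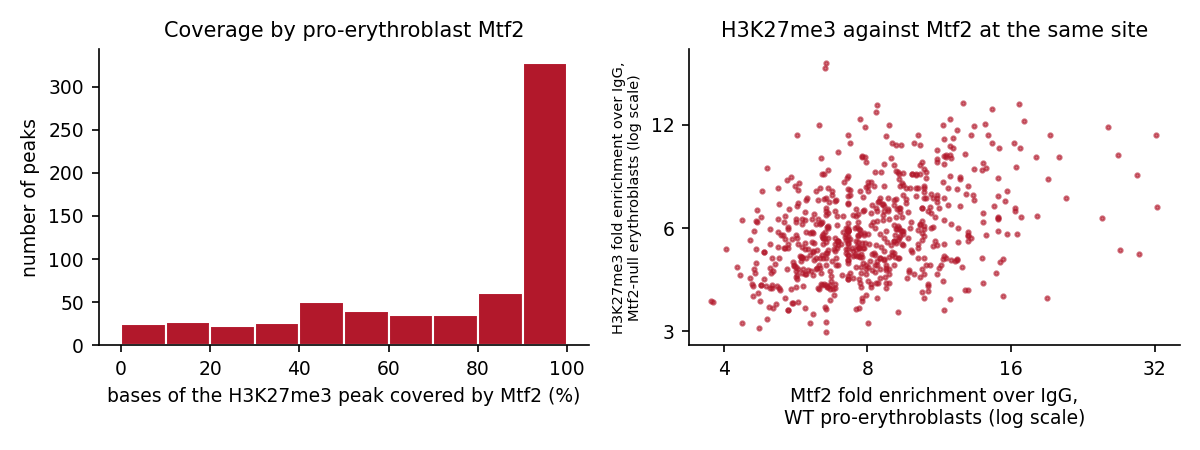
The left panel counts members (y axis) by the share of their bases covered by Mtf2 peaks (x axis, %), and the tallest bar is the one for 90 to 100%. The right panel sets the H3K27me3 fold enrichment of each member (y axis, log scale) against that of its highest-scoring Mtf2 peak (x axis, log scale), with a Spearman rho of 0.377 over 648 members.

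Across the 648 members, the fold enrichment of H3K27me3 and that of the Mtf2 peak at the same site had a Spearman rho of 0.377, whereas the scores had a rho of 0.0275. These are descriptions over sites that share both libraries, their IgG background regions and, as shown above, their sequence. The 667 Mtf2 peaks at members made up 2.31% of the 28918 peaks of that list. They were longer than the other distal autosomal Mtf2 peaks, with medians of 2243 and 1425 bp, but their median fold enrichment was 7.88 against 8.83 and their median GC content 39.9% against 44.5%. Members thus met long, GC-poor Mtf2 peaks with a median fold under that of the others. A longer Mtf2 peak shares a base with another peak more easily, so the rule favours long ones and nothing is read from their length. Low GC was also found in the distal H3K27me3 peaks without Mtf2, at a median of 38.7%. The pro-erythroblast Mtf2 list covered 2.28% of distal autosomal bases.

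H3K27me3 at members was of modest enrichment and spread over kilobases. Fold enrichment over IgG ranged from 2.99 to 18.2 with a median of 5.72, against a median of 5.19 in the other distal peaks. Tags per peak ranged from 35 to 527 with a median of 116 against 83, and length from 562 to 7731 bp with a median of 1849 against 1362 bp. Scores, which are 10 times the negative log10 of the peak's p, had medians of 63.3 and 61.6. On each of the 19 autosomes the median member was longer than the median distal peak without Mtf2, and on 18 of 19 its fold enrichment was higher. Tags followed length closely among members (Spearman rho 0.984), and tags per kb differed little between the sets, with medians of 62.5 and 59.4.

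The overlap rule depends on peak length, and the sets were therefore also compared within 4 length classes of about equal size. The share of distal peaks at a Mtf2 peak was 7.56% (6.20 to 9.19%) in the shortest class, of 550 to 1020 bp, then 12.1%, 14.8% and 19.6% (17.4 to 21.9%) in the longest, of 2351 to 12429 bp. Within every class the median fold enrichment was higher in members, at 5.88 against 5.22 in the shortest and 5.44 against 5 in the longest. The CpG ratio was also higher in members within every class, at 0.203 against 0.144 in the shortest and 0.193 against 0.158 in the longest. GC content did not keep one order: members had 40.0% against 41.0% in the shortest class and 38% against 37.7% in the longest. In the shortest class 94.5% of members (87.8 to 97.6%) and 62.3% of the others (59.4 to 65.1%) were repeat-rich, and in the next class 99.3% (96.2 to 99.9%) and 85.7% (83.5 to 87.7%). In the longer classes both sets were near the ceiling of this call, at 97.7% against 94.4% and at 98.3% against 96.6%, with overlapping intervals. The median share of high-copy words was higher in members in every class, at 94.0% against 60.7% in the shortest, 93.3% against 79.6%, 92.3% against 81.8%, and 89.1% against 82.5% in the longest.

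**Figure D4:**
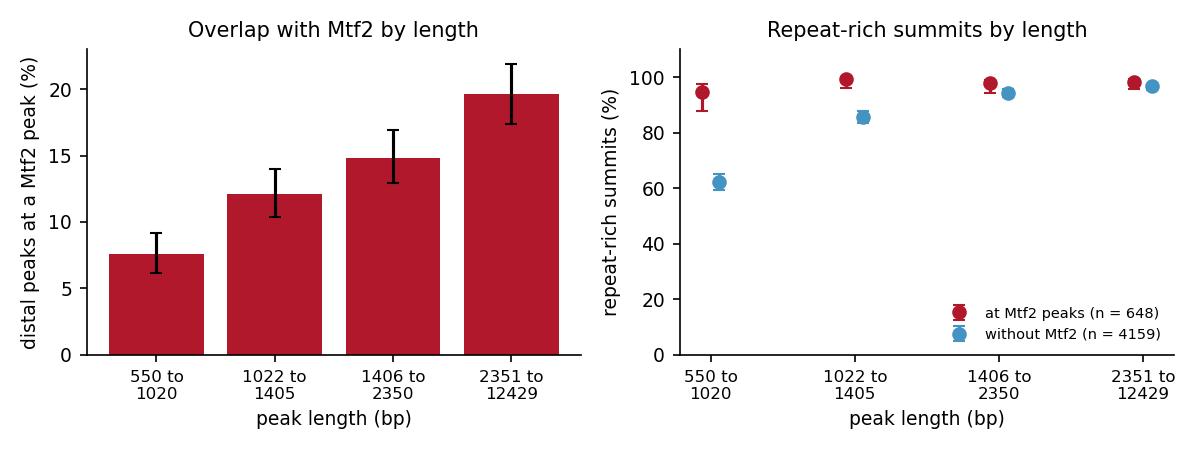
Share of distal peaks that meet a Mtf2 peak (left, %) and share of repeat-rich summits among members (red) and distal peaks without Mtf2 (blue; right, %), by class of peak length (x axes, bp), with 95% Wilson intervals. The overlap share is 7.56% for the shortest and 19.6% for the longest peaks, and the repeat-rich shares of the sets are far apart at 550 to 1020 bp and close at 2351 to 12429 bp.

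The edges of the rule were soft. The members with the least Mtf2 shared 15, 19 and 22 bases with it, and the nearest distal peaks outside lay 4, 8 and 8 bases from a Mtf2 peak, with fold enrichments of 7.72, 8.45 and 13.1 inside and 6.06, 7.5 and 5.39 outside. The member edge closest to a TSS was 5008 bp away, and the peaks with Mtf2 just inside the TSS window were 4805 and 4721 bp away. In all, 157 distal peaks without Mtf2 (3.77%) lay within 1 kb of a Mtf2 peak. Over the whole list, Mtf2 peaks were met by 786 of 5791 peaks (13.6%), which is the share the rule itself draws on, so nothing is read from it.

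The 8 members with the highest scores show the range of sites. The first, chr1:43283686-43288341, lay between genes 66.9 kb upstream of the TSS of Fhl2, which encodes a LIM-domain cofactor, and held 307 tags (exact Poisson 95% interval 274 to 343) at 10.5-fold enrichment and a score of 190. Its Mtf2 peak covered 99.8% of it at 9.20-fold. The second, chr5:5597292-5599770, lay in an intron of A330021E22Rik with 198 tags at 6.14-fold and was 97.9% covered. The next, chr2:85952001-85955664, lay 16.7 kb from Olfr1039, an odorant receptor gene, with 245 tags at 6.82-fold, but Mtf2 covered only 13.7% of it.

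Another, chr5:146697717-146700282, was 6.49 kb upstream of Cyp3a11, a cytochrome P450 of the liver, with 165 tags at 5.30-fold. The member at chr15:14661344-14662670, lay 1559 kb from Cdh6, a cadherin gene, and combined 91 tags with a fold of 17.6. The member at chr14:82809226-82813023, lay 2033 kb from Pcdh17, a protocadherin gene, the farthest of all members from a TSS, with 230 tags at 5.11-fold. The member at chr17:89123080-89130810, was 59.1 kb from Gtf2a1l, and it was also the longest member at 7731 bp and the one with the most tags, 527. The last of the 8, chr8:88410878-88414980, lay in an intron of Phkb, a subunit of phosphorylase kinase, with 281 tags at 5.18-fold. None of the 8 met a peak of any of the other 4 lists.

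By fold enrichment, the first member was chr8:23403676-23405574 in an intron of Tpte, which encodes a membrane phosphatase, at 18.2-fold with 120 tags, and Mtf2 covered 20.5% of it. The second was the member near Cdh6 at 17.6-fold. The next, chr1:110223323-110224031, lay 721 kb from Serpinb8, a serine protease inhibitor gene, and reached 13.9-fold with 61 tags over 709 bp; its Mtf2 peak covered it wholly at 12.7-fold and the summits were 5 bp apart. After the member near Gtf2a1l, the longest were chr8:13804786-13811333 near Upf3a, a nonsense-mediated decay gene, with 6548 bp and 429 tags, and chr4:24066764-24072898 near Mms22l, a DNA repair gene, with 6135 bp and 397 tags. Their fold enrichments were 4.25 and 6.68.

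Most members lay between genes. A protein-coding gene held the summit of 129 members, or 19.9% (17.0 to 23.2%), all in introns, against 20.4% (19.2 to 21.7%) of the other distal peaks and 35.3% of distal autosomal bases. In exons there were 0 of 648 summits, with the same limit of 0.463%. The median distance from summit to nearest TSS was 123 kb (quartiles 38.3 and 351 kb) in members and 96.0 kb in the other distal peaks, and it was larger in members on 16 of 19 autosomes. Over 500 kb from any TSS lay 112 members (17.3%, 14.6 to 20.4%) and 14.2% (13.1 to 15.3%) of the others, and under 20 kb lay 12.8% (10.5 to 15.6%) and 18.1% (17.0 to 19.3%). Summits were upstream of the nearest TSS in 51.9% of members. The genes that held a member were long, with a median of 250 kb over 116 genes, against 168 kb for genes holding another distal peak and 15.6 kb for all autosomal protein-coding genes. The contrast with all genes follows from the rule, since only a gene reaching over 5 kb from every TSS can hold a distal summit and a longer gene offers more room for one.

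Members were spread over the genome. Neighbouring members on a chromosome were a median of 1951 kb apart, and 18 of 629 neighbouring pairs (2.86%) were under 10 kb apart. By chromosome the share of distal peaks at Mtf2 ran from 8.74% (6.07 to 12.4%) on chromosome 2 to 16.7% (11.7 to 23.2%) on chromosome 18. Of 2482 windows of 1 Mb, 525 held a member, 422 of them 1 and 4 of them 4. The first such windows in genome order were chr5:78000001-79000000 and chr9:12000001-13000000, with no protein-coding gene in them, and chr13:33000001-34000000, which holds a cluster of Serpinb genes, among them Serpinb1b, Serpinb6b and Serpinb9. The 4 members of the chromosome 5 window had folds of 5.09 to 7.21, those of chromosome 9 had 3.51 to 6.85, and those of chromosome 13 had 4.90 to 9.68. Mtf2 peaks in these windows numbered 16, 22 and 26.

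No gene gathered many members. Of 116 genes that held a member summit, 103 held 1, 12 held 2 and only Mapk10, a neuronal kinase of the JNK family on chromosome 5, held 3, with folds of 3.75 to 9.80, 64 to 90 tags and Mtf2 coverage of 48.7 to 100%. Its members chr5:103554566-103555706 and chr5:103555720-103556788 lay side by side at the same Mtf2 peak. The same held for neighbouring members near Igfbp7, near Cdh10 and in the chromosome 13 window, so these counts are of peaks and not of separate sites. No other distal peak of the list lay in Mapk10. Among genes holding 2 were Grm8, a metabotropic glutamate receptor, Cdh18, a cadherin, Ptprn2, a phosphatase-like protein of secretory granules, Cadps2, a factor for vesicle release, Myo3a, a myosin gene, Dok6, an adaptor gene, and Phkb. Their members had folds between 3.95 in Grm8 and 13.1 in Cadps2. By nearest TSS, Igfbp7, Gm9934 and Phxr4 had 4 members each. The members nearest to Igfbp7, which encodes a secreted growth factor binding protein, were 290 to 440 kb away with folds of 5.09 to 7.21. Genes with 3 each included Tmeff2, Cntnap5a, Mapk10, Aga, Cdh10 and Cdh18. Cntnap5a and Aga, which encodes a lysosomal enzyme, were also nearest to 14 and 7 of the other distal peaks. Pcmtd1 and Xkr9 followed in genome order with 2 each.

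Gene families gave a similar picture in both sets of distal peaks. Cadherins and protocadherins, which hold cells together, were nearest to 19 members (2.93%, 1.89 to 4.53%) and to 2.24% (1.83 to 2.73%) of the other distal peaks. Within this family Cdh10 and Cdh18 had 3 members each and Pcdh10 and Pcdh17 had 2 each. Among the members of these genes the highest fold was 12, for chr15:21799914-21802330, 677 kb from Cdh18. The member nearest to Cdh6, described above, had a higher fold of 17.6. Olfactory receptors were nearest to 13 members (2.01%) and 1.92% of the others, and vomeronasal receptors to 13 members (2.01%) and 1.95%. Synaptic adhesion genes were nearest to 10 members (1.54%) and 1.68% of the others, among them Cntnap5a at 12.3-fold and Cntn3 at 5.29-fold for their strongest members. Axon guidance genes were nearest to 7 members (Epha4, Epha5, Epha7 and Sema3d among them) and 1.25% of the others, potassium channels to 4 (Kcne4, Kcnh7, Kcnh8 and Kcnv1) and 1.06%, and glutamate receptors to 5 (Grm8, Grik2 and Gria1) and 0.938%. The intervals of members and other peaks overlapped for all 7 of these families.

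The families of blood formation, Polycomb and patterning genes were small, with 39 Hox, 10 PRC2, 5 Gata, 20 erythroid and 29 Wnt and Fzd genes among 21281 autosomal protein-coding genes, so that low counts say little about them. Hox, Gata and PRC2 genes were nearest to 0 of 648 members (limit 0.463% for each family), and to 0, 3 and 1 of the 4159 other distal peaks. Erythroid genes were nearest to 1 member (0.154%, 0.0272 to 0.869%) and to 1 of the others (0.0240%, 0.00424 to 0.136%). Of these genes Bcl11a, a repressor of embryonic globin genes, was nearest to a member, chr11:24494343-24496459, which lay 454 kb from its TSS with 129 tags at 7.02-fold. Wnt and Fzd genes were nearest to 2 members (0.309%, 0.0847 to 1.12%) and to 4 of the others (0.0962%, 0.0374 to 0.247%), with overlapping intervals. The members were chr5:4602233-4603627, 155 kb from the receptor gene Fzd1, at 5.05-fold, and chr14:29391075-29391778, 66.5 kb from the ligand gene Wnt5a, at 6.86-fold. Nearness to a TSS at these distances does not assign a peak to a gene.

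The remaining 4 lists ask whether the same places were marked or bound in other cells. Of the 648 members, 596 met no peak of any of them and 52 (8.02%, 6.17 to 10.4%) met at least 1. So did 5.59% (3.56 to 8.66%) of the peaks of the same list near a TSS, an interval that overlaps that of members. Of the other distal peaks, 2.93% (2.46 to 3.49%) did. H3K27me3 of WT erythroblasts, the same stage with Mtf2 present, shared a base with 1 member (0.154%, 0.0272 to 0.869%) and 20 of the others (0.481%), beside 0.484% of the whole Mtf2-null erythroblast list. H3K27me3 of Mtf2-null pro-erythroblasts, the same genotype at the earlier stage, shared a base with 2 members (0.309%) and 27 of the others (0.649%), beside 0.708% of the whole list. For both lists the intervals of members and others overlapped, and the members' shares were at or under the share of the whole list. The WT erythroblast library was the shallower of the pair, and all 1407 peaks of the Mtf2-null pro-erythroblast list have a deposited FDR of 100%, so the absence of a peak in either list is not the absence of the mark.

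**Figure D5:**
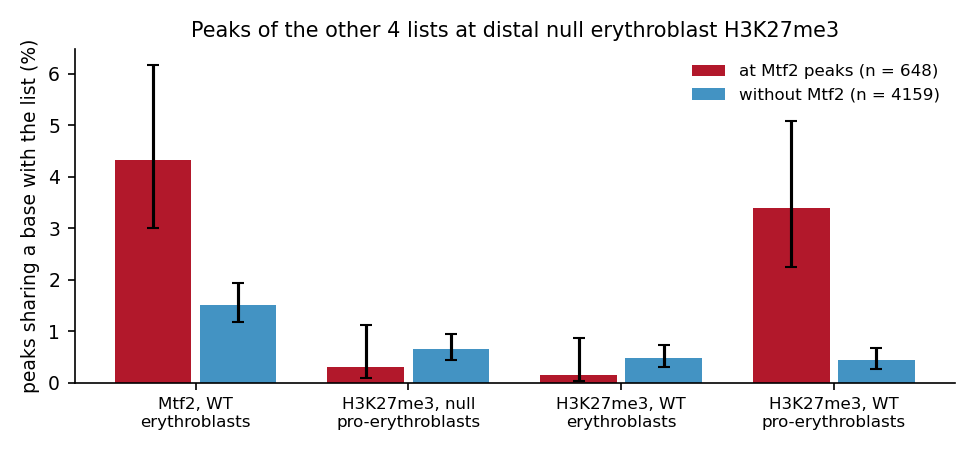
Share of members (red) and of distal peaks without Mtf2 (blue) that share at least 1 base with a peak of each of the other 4 lists (y axis, %), with 95% Wilson intervals. The bars for WT erythroblast Mtf2 (4.32% against 1.51%) and WT pro-erythroblast H3K27me3 (3.4% against 0.433%) stand apart, and those for the 2 remaining lists overlap.

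The WT pro-erythroblast H3K27me3 list met 22 members (3.4%, 2.25 to 5.09%) and 18 of the other distal peaks (0.433%, 0.274 to 0.683%), beside 0.794% of the whole list. The order held in each length class, at 1.10% against 0.539% in the shortest and 3.83% against 0.103% in the longest, although the first rests on 1 member. This list and the Mtf2 list that defines the members were called against the same IgG library, and 82.4% of its distal summits were repeat-rich. The part of the shared IgG library in the overlap was not tested. The WT peaks at these 22 members had a median fold enrichment of 9.07, close to 9.14 over their whole list, and 23 to 151 tags. Their deposited FDR ran from 5.33 to 14.4%, and that of their whole list from 0 to 100%.

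The 6 named members of this kind, taken by score, met Mtf2 over most of their length. The first, chr1:85009304-85013370, lay 78.9 kb from Slc16a14, a transporter gene, in an intron of C130026I21Rik, with 5.40-fold H3K27me3 in Mtf2-null erythroblasts, 6.85-fold Mtf2 and 8.89-fold H3K27me3 in WT pro-erythroblasts. At chr17:51408405-51410570 near Tbc1d5, a Rab regulator gene, the H3K27me3 values were 4.43-fold in Mtf2-null erythroblasts and 11.1-fold in WT pro-erythroblasts. At chr2:139213390-139215919 near Sptlc3, of sphingolipid synthesis, they were 4.15-fold and 5.34-fold. At chr15:45605433-45607843, 661 kb from the potassium channel gene Kcnv1, they were 7.25-fold and 10.7-fold.

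The next by score, chr1:5413363-5418345, lay 162 kb from Oprk1, the kappa opioid receptor gene, and was the longest of these at 4983 bp. It held 366 tags in Mtf2-null erythroblasts, and the WT pro-erythroblast peak it met, chr1:5413312-5417256, held 151. These counts are over different intervals and are not scaled for depth, with 67169672 and 18945784 unique tags in the libraries. The conditions are therefore not compared by them. The H3K27me3 values here were 7.15-fold in Mtf2-null erythroblasts and 8.91-fold in WT pro-erythroblasts. The last was the GC-rich member near Rhou, with 7.84-fold and 12.4-fold. Folds of different libraries were each taken over their own IgG background and are set side by side without comparing the conditions. The 1 member shared with WT erythroblast H3K27me3, chr12:81298664-81299318, lay in Actn1, an alpha-actinin gene, with 7.35-fold in Mtf2-null and 10.1-fold in WT erythroblasts. The members shared with Mtf2-null pro-erythroblasts lay near Serpinb6e and Gpc6, at 7.84-fold and 4.61-fold in erythroblasts and 5.86-fold and 7.99-fold in pro-erythroblasts.

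Mtf2 of WT erythroblasts met 28 members (4.32%, 3.01 to 6.17%) and 63 of the other distal peaks (1.51%, 1.19 to 1.93%), beside 1.81% of the whole list. The share was higher in members in each length class, at 5.49% against 1.08% in the shortest and 5.53% against 2.17% in the longest. Both Mtf2 lists come from the same antibody and genotype, so this overlap is not independent of the rule. Among these members were chr1:164046973-164049445 in Dnm3, a dynamin gene, with 10.5-fold H3K27me3 and 16-fold erythroblast Mtf2, chr1:116123592-116125444 near Cntnap5a, with 7.85-fold and 8.06-fold, and chr1:76760210-76762778 near Epha4, with 5.72-fold and 10.4-fold. The erythroblast Mtf2 peaks at members had a median fold of 10.3 and 15 to 114 tags, and their list carries deposited FDR values from 6.94 to 100%. A single member, chr9:110873709-110874761 in Lrrc2, met both WT erythroblast Mtf2 and WT pro-erythroblast H3K27me3, and 0 members met both WT erythroblast Mtf2 and Mtf2-null pro-erythroblast H3K27me3.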

How the data were processed

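H3K27me3, Mtf2 and IgG ChIP-seq libraries of FL cells were analysed as the 6 deposited peak lists, 1 per condition. Per the submitters' processing notes, reads were aligned to mm9 with Bowtie2 2.2.3, and peaks came from MACS 1.3.7, run on each ChIP library with the IgG control from the same genotype and fraction. Per the file headers, the p cutoff was 1e-05 and the alignments had been masked and filtered against a blacklist. What was masked, and whether replicates were pooled, is not given in the sources used here. The deposited tag counts are reads per peak as the authors' peak caller counted them, not scaled for depth. The fold column is, as deposited, a ratio of ChIP tags to IgG background around the peak. The score, as deposited, is 10 times the negative log10 of the authors' p, and the deposited FDR is a percent estimated by exchanging ChIP and IgG. The series text names H3K4me3 in its first line, whereas the labels name H3K27me3, which was used.

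TSS and genes were taken from GENCODE M1 (22380 protein-coding genes, 69976 distinct TSS) and sequence from NCBIM37. Coordinates are 1-based. ChIP depth ranged from 15669899 to 67169672 unique tags and IgG depth from 12345800 to 39667267. Intervals and limits, the latter from 3 counts, cover counting error only, and amplified reads are not independent molecules. With 1 list per condition, no test was made. The members, gene families and lists were chosen with earlier results of these data known, and the 16-base and 24-base word measures after the files had been seen. Named peaks were the 8 with the highest score, 3 with the highest fold, 3 longest, up to 6 by score that meet a WT H3K27me3 peak, and up to 5 that meet both erythroblast Mtf2 and Mtf2-null pro-erythroblast H3K27me3. Named genes were the 12 holding most summits, the 12 nearest to most summits (1 of them is not reported here) and up to 4 per fixed family, with the 3 windows of 1 Mb holding most members. Other peaks named for meeting another list or for low repeat content were picked after their values were seen. Overlap, gap, nearest TSS and word steps were tested on simulated intervals and sequences. The steps ran in Python 3.11.15 with numba 0.67.0, scipy 1.17.1, numpy 2.4.6, matplotlib 3.10.9 and pandas 2.3.3. Alternatives were other scores, FDR, overlap, TSS and sequence windows.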

Additional observations from a re-analysis of the deposited data

Results flagged for a closer look

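The sex chromosomes were left out of the regions above, and they too held distal Mtf2-null erythroblast H3K27me3 at Mtf2 peaks. On the X chromosome, 105 of 631 distal peaks shared a base with a pro-erythroblast Mtf2 peak, or 16.6% (95% Wilson interval 13.9 to 19.7%), where a count of 0 would allow up to 0.475%. These 105 peaks had a median fold enrichment of 5.39, a median length of 1933 bp and a median GC content of 37.8%, beside 5.72, 1849 bp and 38.3% in the autosomal regions. Mtf2 peaks covered 3.34% of the X chromosome and 2.02% of the autosomes. On the Y chromosome the count was 2 of 8 distal peaks. The difference between the X chromosome and the autosomes was not tested.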

How the results depend on the processing

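Of 113 values recomputed under 12 alternatives, 92 stayed within the limits set (1.5 times for the number of regions, the 95% interval for other values) and 21 moved. A limit of 100 on the score in every list moved 11 values: it left 20 of 412 distal peaks as members (4.85%), with a median length of 2600 bp, fold of 7.00, GC of 38%, CpG ratio of 0.168 and 25% inside genes, and 0 of the 20 met any of the other 4 lists, where 3 counts would be 15%. With 500 bp at each summit in place of whole peaks, 303 regions remained in the rule (6.24%), with 39.3% GC, a fold of 6.05 and 23.4% inside genes. The share of distal peaks at Mtf2 was 10.4% with at least 50% coverage, 10.5% with the summit inside a Mtf2 peak and 16.7% with a Mtf2 peak within 1 kb. Median GC was 38.7% over whole peaks, and the CpG ratio 0.185 in 300 bp. The cause of these moves was not tested. The FDR limit of 5% removed no peak of the lists that define the regions. Their highest FDR was 1.16% for H3K27me3 and 0.310% for Mtf2. The limit was not applied to the other 4 lists, so it says nothing about the overlaps with them. In the WT erythroblast Mtf2 list the lowest FDR was 6.94%, above this limit. Median length has no value under fixed 500 bp windows. No paired analysis was possible because each condition had 1 list and no test was made. A peak missing from a shallower list may lie under its limit of detection.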

Other observations

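Peaks of the same list near a TSS met pro-erythroblast Mtf2 at 31 of 322 sites, or 9.63% (95% Wilson interval 6.87 to 13.3%), beside 13.5% of distal peaks. These 322 peaks, most of them without Mtf2, had a median length of 1224 bp. The distal regions at Mtf2 had 1849 bp and the distal peaks without Mtf2 had 1362 bp. The 322 peaks had a median GC content of 40.2% and reached the CpG island limits in 0 cases (limit 0.932%). Their median observed over expected CpG ratio was 0.155, beside 0.200 in the distal regions at Mtf2, 0.151 in the distal peaks without Mtf2 and 0.161 in all 1 kb autosomal windows.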
